A study of Homo sapiens with 20 samples.

Results

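Heat shock proteins and the chaperones that work in the cytosol were examined as a set of 33 genes in the Caco-2 line, derived from a human colon tumour and able to differentiate into an enterocyte-like layer. The members were found by symbol in the annotation of the Affymetrix HG-U133 Plus 2.0 array. Of the 33 genes, 28 had a probe set of their own, out of 19775 such genes on the array. HSPA1A, HSPA1B and HSPA8 were named only on probe sets annotated to several genes, and AHSA1 and HSF2 had no probe set named for them here. The set covered 76 of 54675 probe sets, 66 named for 1 gene and 10 for several. Not all members belong to the cytosol: HSPA9, HSPD1 and HSPE1 are textbook mitochondrial chaperones, and SERPINH1 is a collagen chaperone of the endoplasmic reticulum.

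The 20 arrays fell into 9 groups of one cell line. Live bacteria were added at 20 to 100 per Caco-2 cell for 8 h, with 2 arrays each for L. salivarius Ls-33, L. acidophilus NCFM and also B. lactis 420. Cell-free supernatants of the same 3 strains were given at 10% (v/v) for 24 h, with 2 arrays each, and the 14 arrays of this set included 2 of cells in medium alone for 8 h. A second set of 6 arrays held 3 of cells given 5% supernatant of E. coli O157:H7 for 24 h and 3 of cells in medium alone for 24 h. The cells of all groups had been differentiated on culture inserts for 5 days. The bacteria had been grown in MRS broth, or in LB broth with 1% glucose for E. coli, and no broth-only group was analysed here. RNA input was 5 µg in the first set and 1 µg in the second. The description of the series calls the first set duplicates without saying whether they were separate cultures, so the p-values measure the spread between arrays, which may be technical. The medium of the probiotic supernatants ran for 8 h, so supernatant and the longer time cannot be told apart. Values are log2 signals of a probe set, and differences are log2 changes against the medium of the same array set, with the standard error of a limma fit. A change was called at an adjusted p under 0.05 over 11865 genes, of which 27 were members. Where a call is said to become a value without an array, the value is the adjusted p of the fit that leaves this array out. The remaining member with its own probe set, DNAJA4, an Hsp70 partner, lay under the floor for testing, with signals of 2.56 to 2.81 in the co-cultures and 2.60 to 2.64 in 8 h medium.

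The heat shock response is a transcriptional program in which heat shock factor 1 (HSF1), held back by chaperones in unstressed cells, forms trimers when unfolded proteins accumulate and binds repeated GAA and TTC units near chaperone genes. Hsp70 proteins bind exposed hydrophobic stretches of a client. J-domain proteins deliver the client and start ATP hydrolysis, and Hsp110 and BAG proteins release the nucleotide. Hsp90 with its co-chaperones matures kinases and receptors, small heat shock proteins hold unfolded clients, and the Hsp60 chaperonin with its lid Hsp10 folds proteins inside mitochondria. In gut epithelium the inducible forms are known as protectors of barrier and cytoskeleton.

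The binding unit of HSF1 was looked up in the sequence before the transcription start. RefSeq windows (GRCh38.p14) of 250 bases before to 50 after the start were given for 29 member genes, in 45 windows. The letters GAA, TTC and GAA with any 2 bases between neighbours, read on either strand, were found in 9 of 29 member genes (31.0%), against 166 of 27305 genes (0.608%). The shorter unit, TTCNNGAA or GAANNTTC, which the longer one contains, was found in 20 of the 29 (69.0%), against 4417 of 27305 (16.2%). The longer motif was not in the windows of the other 20 members, and the window of HSPH1 held neither unit. A match describes letters in a window and not a bound site. The 250 bases before the start are shown for 4 members that hold the longer motif, chosen for their unlike changes on the arrays: CHORDC1 (chr11:90223050-90223299, minus strand), HSPA6 (chr1:161524290-161524539, plus strand), HSP90AA1 (chr14:102087045-102087294, minus strand) and SERPINH1 (chr11:75562003-75562252, plus strand). Sequences run 5′ to 3′ toward the start, and capitals mark the longer motif.
CHORDC1: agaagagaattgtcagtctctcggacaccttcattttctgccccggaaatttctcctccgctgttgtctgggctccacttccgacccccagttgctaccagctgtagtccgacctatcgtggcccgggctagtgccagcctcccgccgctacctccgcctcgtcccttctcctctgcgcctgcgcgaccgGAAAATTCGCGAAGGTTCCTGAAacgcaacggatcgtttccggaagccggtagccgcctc
HSPA6: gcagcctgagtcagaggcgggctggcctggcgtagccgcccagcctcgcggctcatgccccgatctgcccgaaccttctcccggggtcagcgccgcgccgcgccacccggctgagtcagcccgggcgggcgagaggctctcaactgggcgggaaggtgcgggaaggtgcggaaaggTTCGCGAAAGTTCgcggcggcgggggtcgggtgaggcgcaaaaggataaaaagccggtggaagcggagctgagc
HSP90AA1: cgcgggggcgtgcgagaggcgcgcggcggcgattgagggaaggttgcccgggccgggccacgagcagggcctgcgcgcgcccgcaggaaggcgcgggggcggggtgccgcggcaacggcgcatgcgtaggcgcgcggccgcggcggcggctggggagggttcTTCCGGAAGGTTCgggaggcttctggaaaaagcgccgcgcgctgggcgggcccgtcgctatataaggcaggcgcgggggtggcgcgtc
SERPINH1: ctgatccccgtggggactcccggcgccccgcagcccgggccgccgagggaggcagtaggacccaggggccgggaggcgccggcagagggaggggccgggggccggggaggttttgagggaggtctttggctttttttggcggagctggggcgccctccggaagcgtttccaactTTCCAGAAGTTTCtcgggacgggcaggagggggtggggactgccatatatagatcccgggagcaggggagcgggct
With the first transcribed base as 0, CHORDC1 held 3 overlapping matches between -60 and -38, HSPA6 held 1 at -74, HSP90AA1 held 1 at -88 and SERPINH1 held 1 at -76.

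Array medians lay between 2.66 and 2.72, and arrays of a group correlated at 0.994 to 0.997 across probe sets. The actin 3′ minus 5′ signal, a measure of RNA integrity, was 1.08 to 1.54 in the 6 co-cultures and 1.02 to 1.11 in the 6 probiotic supernatants, against 0.802 to 0.878 in 8 h medium. In the second set it was 2.12 to 2.22 with E. coli supernatant, against 1.90 to 2.17 in 24 h medium. Its part in the chaperone changes was not tested. Of 12 epithelial markers, 11 were above the floor on every array, APOA1 being the exception, and the summed level of the 12 was 123.8 to 126.2 in the co-cultures, against 123.9 to 125.6 in 8 h medium, and 119.6 to 120.1 with E. coli supernatant, against 118.3 to 119.4 in 24 h medium. Single epithelial markers moved in both directions within that sum, with 3 higher and 4 lower of 12 for NCFM cells, 4 and 3 for B. lactis 420 cells and 5 and 3 for Ls-33 cells. For the supernatants of these strains it was 2 and 2, 3 and 2, and 3 and 2, and for E. coli supernatant 5 and 3 of 11. VIL1 changed by -0.37, -0.39 and -0.48 with the live strains and -0.94 with E. coli supernatant, FABP1 by -0.36, -0.32 and -0.37 and -1.04, and SI by 1.19, 0.99 and 1.10 and 0.99, all called. KRT20 was called in every treatment but NCFM cells, with 0.29 and 0.76 for B. lactis 420 and Ls-33 cells, 0.57 to 0.63 for the probiotic supernatants and 0.39 for E. coli supernatant. ALPI fell by 0.77, 0.67 and 0.52 with the live strains, all called. KRT8 and KRT18 were called higher with every live strain and lower with every probiotic supernatant. CDX2 rose by 1.52 with E. coli supernatant, also called. Of 9 measured fibroblast, leukocyte and endothelial markers, DCN, PTPRC, CD3E and VWF were under the floor on all 20 arrays. COL1A1 (10.23 to 11.43), PECAM1 (7.26 to 9.26) and CD14 (3.71 to 4.86) were above it on every array. COL1A2 was under it on 15 arrays and PDGFRB on 7. The summed level of the 9 was 37.4 to 39.0 in the co-cultures, against 38.4 to 39.5 in 8 h medium, and 34.5 to 34.8 with E. coli supernatant, against 38.6 to 38.7 in 24 h medium. Of these 9 markers, COL1A1, CD14 and PECAM1 were tested in both array sets. PDGFRB was tested in the probiotic set alone, without a call, and COL1A2 in the E. coli set alone. Calls were 1 higher and 1 lower with cells of NCFM, 1 and 1 with B. lactis 420, 2 and 1 with Ls-33, none with the probiotic supernatants, and 1 and 3 with E. coli supernatant. COL1A1 changed by 0.33, 0.19 and 0.32 with the live strains in that order and by -0.90 with E. coli supernatant, and PECAM1 by -0.36, -0.34 and -0.46 and -1.44, all called. CD14 was called higher with Ls-33 cells (0.52) and E. coli supernatant (0.51), and COL1A2 lower with E. coli supernatant (-0.81). The part of these markers in the chaperone changes was not tested.

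With live bacteria, members of the set were called higher more often than lower, among them HSPH1, HSPA6, DNAJB4 and CHORDC1, each called with every strain. The DNAJB4 calls were on its probe set of highest signal, and its other probe set was not called with any live strain. With NCFM cells 11 of 27 tested members were higher and 2 lower (48.1%), where 35.3% of all genes were called, 16.8% higher and 18.4% lower. With B. lactis 420 cells 15 were higher and 2 lower (63.0%), where 35.3% of all genes were called, 18.3% higher and 16.9% lower. With Ls-33 cells 17 were higher and 2 lower (70.4%), where 38.7% of all genes were called, 19.4% higher and 19.3% lower. The median log2 change of the tested members was 0.16, 0.23 and 0.29 in that order of strains, against -0.0060, 0.0087 and -0.0079 over all genes. Without CRYAB, whose medium arrays averaged under the floor for testing, 10, 14 and 16 of 26 members were higher and 2 lower each time. The 3 comparisons share both medium arrays, so a high or low medium array moves all of them. With each array of the compared groups left out in turn, 9 of the 13 NCFM calls, 13 of the 17 B. lactis 420 calls and 14 of the 19 Ls-33 calls held every time. In bulk RNA, fewer cells that express a gene and less RNA per cell cannot be told apart.

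**Figure D1:**
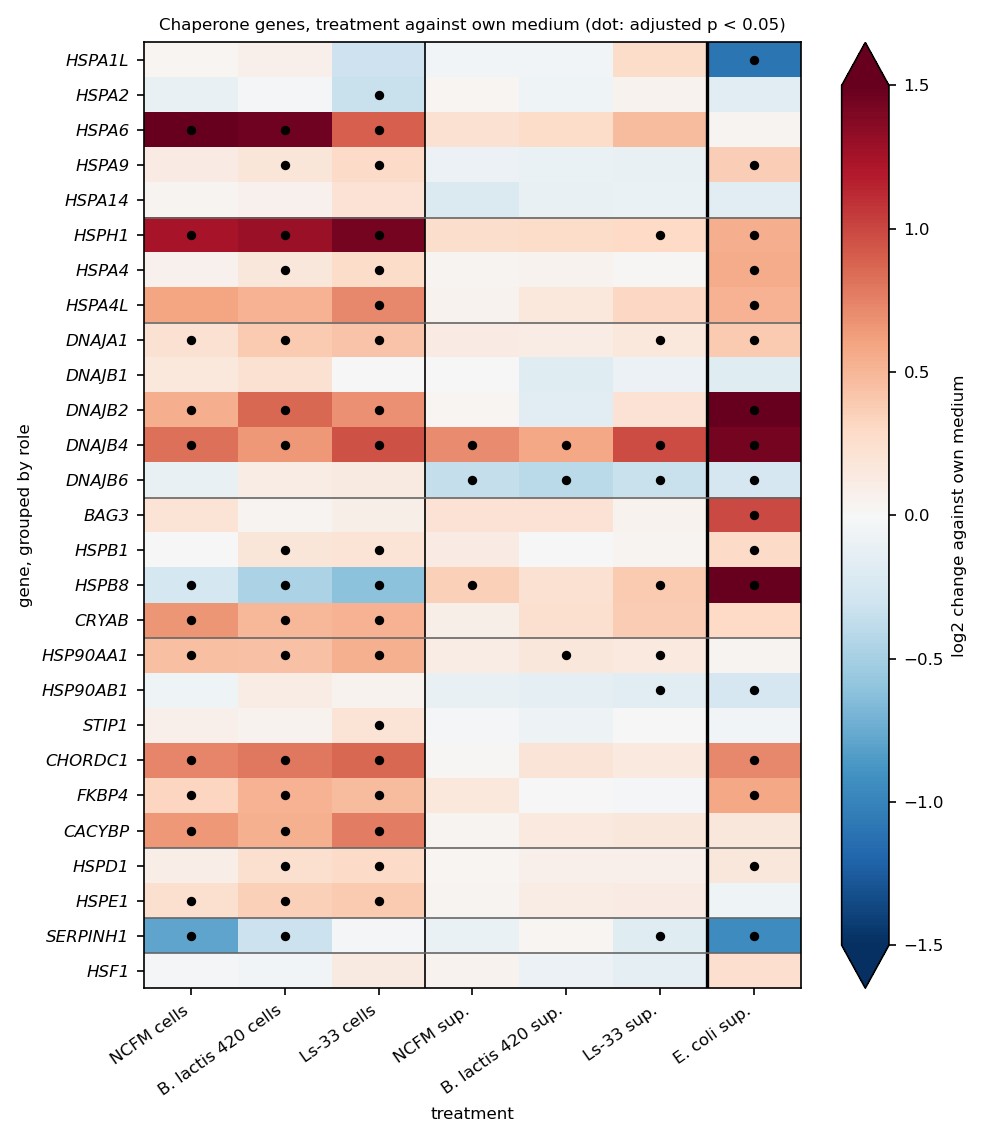
Log2 changes of the members in the 7 treatments against the medium of their own array set, one row per tested gene, grouped by role, and one column per treatment, with colours that saturate at 1.5 and dots on calls at an adjusted p under 0.05. HSPH1, DNAJB4 and CHORDC1 are positive in every co-culture, HSPB8 is negative in the co-cultures and 2.70 with E. coli supernatant, and most cells of the probiotic supernatant columns lie near 0.

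Among the Hsp110 nucleotide exchange factors, which recharge Hsp70 with ATP, HSPH1 changed most. HSPH1 had signals of 9.50 and 9.22 with NCFM cells, 9.38 and 9.45 with B. lactis 420 cells and 9.56 and 9.56 with Ls-33 cells, against 8.03 and 8.22 in 8 h medium. All 6 co-culture arrays lay above both medium arrays, and the Ls-33 arrays above those of the other 2 strains. The changes were 1.24 ± 0.10, 1.29 ± 0.10 and 1.43 ± 0.10 (adjusted p = 1.05e-08, 5.43e-09 and 8.77e-10). HSPA4, another Hsp110, went both ways with NCFM cells, depending on the probe set. On a probe set marked as cross-hybridising NCFM arrays had 7.91 and 7.55, below 8.40 and 8.53 in 8 h medium. On others not representing the gene they lay above both medium arrays. On the probe set that represented it, HSPA4 changed less than HSPH1, by 0.062 for NCFM, 0.17 for B. lactis 420 and 0.28 for Ls-33. Its calls with B. lactis 420 (adjusted p = 0.0442) and Ls-33 (0.00172) were sensitive to single arrays. For B. lactis 420 the adjusted p was 0.0743 without 8 h medium array 1, 0.207 without 8 h medium array 2 and 0.341 without B. lactis 420 co-culture array 2, and for Ls-33 it was 0.0532 without Ls-33 co-culture array 1. On another probe set of HSPA4L, a close relative abundant in testis, every co-culture array lay above both medium arrays, which had 3.58 and 3.56. It had 4.615 and 4.33 with NCFM cells, 4.37 and 4.03 with B. lactis 420 cells and 4.23 and 4.45 with Ls-33 cells. On its probe set of highest signal HSPA4L had changes of 0.60 ± 0.23, 0.52 ± 0.23 and 0.72 ± 0.23 (adjusted p = 0.0508, 0.0871 and 0.0181). Its Ls-33 call became 0.232 without 8 h medium array 2 and 0.133 without Ls-33 co-culture array 1. The adjusted p for NCFM was 0.0209 without 8 h medium array 1, and for B. lactis 420 it was 0.0342 without 8 h medium array 1 and 0.0161 without B. lactis 420 co-culture array 1.

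Of the 5 Hsp70 genes tested on their own probe set, 1 was called higher with NCFM, where 16.8% of all genes were, and 2 with each of the other strains, where 18.3% and 19.4% were. HSPA6, a strictly stress-inducible Hsp70 that is near silent in resting cells, had signals of 4.45 and 4.64 with NCFM cells, 4.35 and 4.38 with B. lactis 420 cells and 3.49 and 4.12 with Ls-33 cells, against 2.84 and 2.98 in 8 h medium. The medium arrays lay near the floor for testing (2.74). It rose by 1.63 ± 0.19, 1.45 ± 0.19 and 0.89 ± 0.19 (adjusted p = 1.7e-06, 7.03e-06 and 0.000976), and NCFM and B. lactis 420 arrays lay above Ls-33 arrays. Its second probe set, which was named for HSPA6 as well, changed by 0.87 ± 0.16, 0.90 ± 0.16 and 0.52 ± 0.16 with calls for all 3 strains. The major inducible pair HSPA1A and HSPA1B cannot be separated on this array. The probe set annotated to both with the higher signal had 12.51 and 12.60 with NCFM cells, 12.57 and 12.49 with B. lactis 420 cells and 12.59 and 12.53 with Ls-33 cells, against 12.10 and 12.03 in 8 h medium. Every co-culture array was higher than both medium arrays, and the strains overlapped. The change was 0.49 ± 0.045, 0.47 ± 0.045 and 0.50 ± 0.045 (adjusted p = 1.75e-07, 3.33e-07 and 1.17e-07 over 23086 probe sets). A second probe set of the pair rose by 0.57, 0.55 and 0.51, and one that HSPA1L shares with them rose by 0.47, 0.57 and 0.52. Of all tested probe sets, 14.8% were called higher for NCFM, 16.5% for B. lactis 420 and 17.4% for Ls-33.

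HSPA8, the constitutive Hsp70 of every cell, was named on 4 probe sets together with small nucleolar RNAs that lie in its introns. The only one not marked as cross-hybridising had 12.59 and 12.45 with NCFM cells, 12.74 and 12.63 with B. lactis 420 cells and 12.67 and 12.69 with Ls-33 cells. In 8 h medium it had 12.33 and 12.33. The one with the largest changes, which is so marked, had 13.06 and 13.01 with NCFM cells, 13.08 and 13.12 with B. lactis 420 cells and 13.14 and 13.10 with Ls-33 cells, against 12.72 and 12.77 in 8 h medium. Its changes were 0.29 ± 0.038, 0.36 ± 0.038 and 0.37 ± 0.038 (adjusted p = 1.17e-05, 1.22e-06 and 5.37e-07). All 4 were called higher with each strain, with changes between 0.14 and 0.37. The smallest, with NCFM cells, lost its call without some arrays, with an adjusted p of 0.26 without 8 h medium array 1, 0.0572 without 8 h medium array 2 and 0.341 without NCFM co-culture array 2, and a second NCFM call became 0.0685 without NCFM co-culture array 1. With B. lactis 420 cells the same weakest probe set reached 0.0741 without 8 h medium array 1 and 0.116 without B. lactis 420 co-culture array 2. HSPA9, the mitochondrial Hsp70, had changes of 0.12 ± 0.051, 0.19 ± 0.051 and 0.29 ± 0.051. It was called with B. lactis 420 (adjusted p = 0.00745) and Ls-33 (0.000134), and the B. lactis 420 call became 0.0903 without 8 h medium array 1 and 0.0506 without B. lactis 420 co-culture array 1. HSPA2, an Hsp70 needed in sperm development, fell with Ls-33 by 0.33 ± 0.079 (adjusted p = 0.00268) and had -0.11 ± 0.079 with NCFM and -0.023 ± 0.079 with B. lactis 420. HSPA1L had signals of 5.00 and 5.10 with NCFM cells, 5.09 and 5.12 with B. lactis 420 cells and 4.66 and 4.76 with Ls-33 cells, against 5.18 and 4.86 in 8 h medium, with NCFM and B. lactis 420 arrays between the medium arrays, both Ls-33 arrays below them and no call. HSPA14, a ribosome-associated Hsp70, had changes of 0.037 for NCFM, 0.070 for B. lactis 420 and 0.22 for Ls-33 and no call on its main probe set. On another HSPA14 probe set every co-culture array lay above both medium arrays, which had 7.27 and 7.13. It had 7.59 and 8.01 with NCFM cells, 7.86 and 7.73 with B. lactis 420 cells and 7.86 and 7.84 with Ls-33 cells. The remaining probe set had 8.36 and 8.27, 8.34 and 8.36, and 8.20 and 8.45 in that order, against 8.44 and 8.62 in 8 h medium.

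J-domain proteins, which choose the clients of Hsp70, were split. DNAJB4 had signals of 6.63 and 6.73 with NCFM cells, 6.40 and 6.61 with B. lactis 420 cells and 6.85 and 6.78 with Ls-33 cells, against 5.996 and 5.72 in 8 h medium. The co-culture arrays stood above the medium arrays, and the change was 0.82 ± 0.14, 0.65 ± 0.14 and 0.96 ± 0.14 (adjusted p = 0.00016, 0.00151 and 2.51e-05). Its other probe set was not called with any live strain, at -0.21 ± 0.18, 0.051 ± 0.18 and 0.43 ± 0.18 (adjusted p = 0.401, 0.865 and 0.0766). DNAJB2, which also binds ubiquitin chains and is known from neurons, had 5.23 and 5.45 with NCFM cells, 5.86 and 5.47 with B. lactis 420 cells and 5.28 and 5.70 with Ls-33 cells, against 4.83 and 4.77 in 8 h medium. Its changes were 0.54 ± 0.18, 0.86 ± 0.18 and 0.69 ± 0.18 (adjusted p = 0.0272, 0.00109 and 0.00565). The NCFM call became 0.073 without 8 h medium array 1, 0.111 without 8 h medium array 2 and 0.161 without NCFM co-culture array 2, and the Ls-33 call 0.106 without Ls-33 co-culture array 2. DNAJA1, the abundant cytosolic partner of Hsp70, rose on its probe set of highest signal by 0.22 ± 0.050, 0.39 ± 0.050 and 0.43 ± 0.050 (adjusted p = 0.00171, 5.72e-06 and 1.34e-06). On its other probe set NCFM arrays, at 9.47 and 9.51, lay between the medium arrays, at 9.45 and 9.54. The B. lactis 420 and Ls-33 arrays lay above both. DNAJB1, the classic inducible J-domain protein, had signals of 8.45 and 8.41 with NCFM cells, 8.48 and 8.52 with B. lactis 420 cells and 8.26 and 8.30 with Ls-33 cells, against 8.22 and 8.32 in 8 h medium. Its co-culture arrays lay above the medium arrays for NCFM and B. lactis 420 and overlapped them for Ls-33. No change of DNAJB1 was called on this probe set of highest signal, at 0.16 ± 0.090, 0.23 ± 0.090 and 0.0079 ± 0.090 (adjusted p = 0.175, 0.0504 and 0.954). Its other probe set had 7.61 and 7.77 in 8 h medium. There B. lactis 420 arrays (8.03 and 8.07) and Ls-33 arrays (7.83 and 7.94) lay above both medium arrays. The NCFM arrays (8.02 and 7.43) lay on either side of them. DNAJB6, which keeps aggregation-prone proteins soluble, had -0.11 for NCFM, 0.11 for B. lactis 420 and 0.14 for Ls-33 and no call.

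Of the 2 cytosolic Hsp90 genes, the inducible one rose with every live strain. HSP90AA1, the stress-inducible cytosolic Hsp90, had signals of 12.99 and 12.91 with NCFM cells, 12.88 and 12.99 with B. lactis 420 cells and 13.04 and 13.02 with Ls-33 cells, against 12.49 and 12.50 in 8 h medium. All co-culture arrays were higher than the medium arrays, by 0.45 ± 0.047, 0.43 ± 0.047 and 0.53 ± 0.047 (adjusted p = 3.56e-07, 5.37e-07 and 2.62e-08). HSP90AB1, the constitutive form, had 12.04 and 12.02 with NCFM cells, 12.22 and 12.20 with B. lactis 420 cells and 12.16 and 12.15 with Ls-33 cells, against 12.06 and 12.14 in 8 h medium. On this probe set of highest signal its changes, -0.069 ± 0.044, 0.11 ± 0.044 and 0.056 ± 0.044, were not called (adjusted p = 0.245, 0.0505 and 0.343). Of its 2 other probe sets, one fell with NCFM by 0.42 ± 0.062 (adjusted p = 3.76e-05) and was not called with B. lactis 420 or Ls-33 (0.035 and 0.0089), and the other rose with B. lactis 420 by 0.22 ± 0.061 (adjusted p = 0.0108) and with Ls-33 by 0.18 ± 0.061 (adjusted p = 0.0293) and was not called with NCFM (-0.045). On the probe set of highest signal, NCFM arrays lay below both medium arrays and those of the other 2 strains above them, and without 8 h medium array 2 the B. lactis 420 change was called (adjusted p = 0.0384).

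Among the Hsp90 co-chaperones, CHORDC1, CACYBP and FKBP4 rose with every live strain. CHORDC1, a zinc-binding Hsp90 partner whose window held 3 overlapping matches of the HSF1 unit, had 11.35 and 11.20 with NCFM cells, 11.35 and 11.33 with B. lactis 420 cells and 11.48 and 11.34 with Ls-33 cells, against 10.56 and 10.53 in 8 h medium. The co-culture and medium arrays did not overlap, and the change was 0.73 ± 0.078, 0.79 ± 0.078 and 0.86 ± 0.078 (adjusted p = 5.02e-07, 1.51e-07 and 3.67e-08). CACYBP, which links a ubiquitin ligase to Hsp90-type co-chaperone folds, had 9.84 and 9.84 with NCFM cells, 9.71 and 9.73 with B. lactis 420 cells and 10.02 and 9.88 with Ls-33 cells, against 9.13 and 9.24 in 8 h medium. It rose by 0.65 ± 0.12, 0.54 ± 0.12 and 0.76 ± 0.12 (adjusted p = 0.000365, 0.00204 and 6.33e-05). FKBP4, an immunophilin of steroid receptor complexes, rose by 0.32 ± 0.11, 0.52 ± 0.11 and 0.48 ± 0.11, and its NCFM call (adjusted p = 0.0286) became 0.168 without 8 h medium array 1 and 0.192 without NCFM co-culture array 1. STIP1, which bridges Hsp70 and Hsp90, had 0.075 for NCFM, 0.055 for B. lactis 420 and 0.21 for Ls-33 and was called with Ls-33 (adjusted p = 0.00569), which became 0.0582 without 8 h medium array 2 and 0.0796 without Ls-33 co-culture array 1.

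Small heat shock proteins went in different directions. HSPB8, which works with BAG3 in selective autophagy of misfolded proteins, had 8.14 and 8.04 with NCFM cells, 7.86 and 7.90 with B. lactis 420 cells and 7.77 and 7.72 with Ls-33 cells, against 8.36 and 8.35 in 8 h medium. It lay below both medium arrays in all 6 co-cultures. The changes were -0.26 ± 0.091, -0.48 ± 0.091 and -0.61 ± 0.091 (adjusted p = 0.0296, 0.000397 and 2.55e-05), and the NCFM call became 0.103 without 8 h medium array 1, 0.0914 without 8 h medium array 2 and 0.151 without NCFM co-culture array 2. HSPB1, the abundant Hsp27, had 11.16 and 11.15 with NCFM cells, 11.35 and 11.33 with B. lactis 420 cells and 11.37 and 11.37 with Ls-33 cells, against 11.20 and 11.12 in 8 h medium. It rose with B. lactis 420 by 0.18 ± 0.047 (adjusted p = 0.0049) and with Ls-33 by 0.21 ± 0.047 (adjusted p = 0.00136), whereas NCFM arrays overlapped the medium at -0.0059 ± 0.047. The B. lactis 420 call became 0.0741 without 8 h medium array 2. CRYAB, a small heat shock protein of lens and muscle, was called with every strain at 0.66 ± 0.17, 0.50 ± 0.17 and 0.52 ± 0.17 (adjusted p = 0.00567, 0.0304 and 0.0215), but its signals of 3.04 to 3.49 in the co-cultures and 2.45 to 2.75 in 8 h medium were near the floor, which it passed through treated arrays. Without some arrays these calls were lost. The NCFM call reached 0.0771 without 8 h medium array 1 and 0.109 without NCFM co-culture array 2. The B. lactis 420 call reached 0.235 without 8 h medium array 1, 0.133 without B. lactis 420 co-culture array 1 and 0.0729 without B. lactis 420 co-culture array 2. The Ls-33 call reached 0.19 without 8 h medium array 1 and 0.126 without Ls-33 co-culture array 1. BAG3, an inducible nucleotide exchange factor, had 8.85 and 8.68 with NCFM cells, 8.65 and 8.55 with B. lactis 420 cells and 8.65 and 8.64 with Ls-33 cells, against 8.65 and 8.47 in 8 h medium. Its changes of 0.21 ± 0.10, 0.047 ± 0.10 and 0.086 ± 0.10 were not called (adjusted p = 0.111, 0.755 and 0.53).

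**Figure D2:**
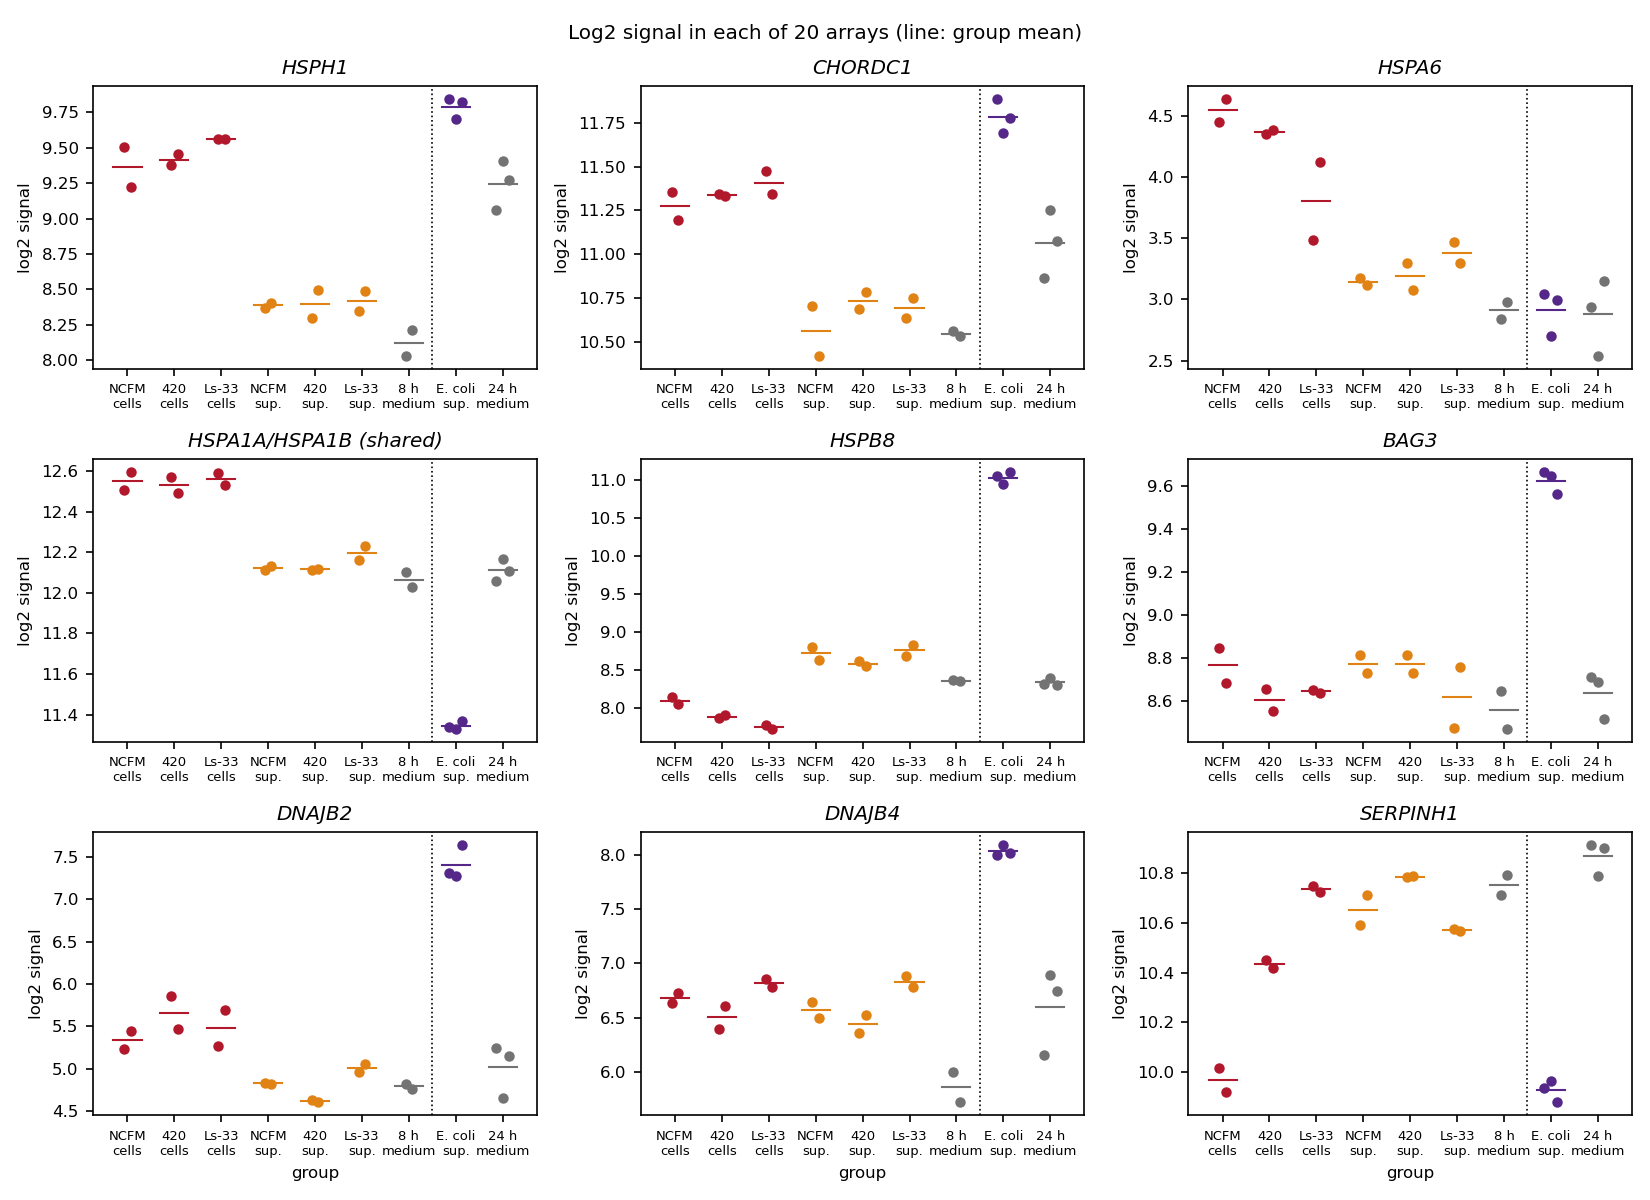
Log2 signal of single members on every array, grouped by treatment with treatments left of the medium of their set, one point per array and a line at each group mean. HSPH1 lies higher on all 6 co-culture arrays than on both 8 h medium arrays, and HSPB8 on the 3 E. coli supernatant arrays lies above every other array.

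The lid of the mitochondrial chaperonin rose with every live strain, and its barrel, on the probe set of highest signal, with 2 of 3. HSPE1, its lid, had 12.13 and 12.07 with NCFM cells, 12.23 and 12.21 with B. lactis 420 cells and 12.30 and 12.21 with Ls-33 cells, against 11.84 and 11.89 in 8 h medium. The arrays of all strains stood above the medium, by 0.24 ± 0.049, 0.35 ± 0.049 and 0.39 ± 0.049 (adjusted p = 0.000805, 1.22e-05 and 2.88e-06). HSPD1, the barrel, had 12.98 and 12.99 with NCFM cells, 13.14 and 13.12 with B. lactis 420 cells and 13.18 and 13.17 with Ls-33 cells, against 12.82 and 12.95 in 8 h medium on its probe set of highest signal. It rose with B. lactis 420 and Ls-33, and the changes were 0.10 ± 0.039, 0.24 ± 0.039 and 0.29 ± 0.039 (adjusted p = 0.0576, 6.97e-05 and 7.75e-06), where the NCFM p was 0.00806 without 8 h medium array 2. Another HSPD1 probe set rose with all 3 strains, by 2.94, 2.62 and 2.32. SERPINH1, the collagen chaperone, had 10.02 and 9.92 with NCFM cells, 10.45 and 10.42 with B. lactis 420 cells and 10.75 and 10.72 with Ls-33 cells, against 10.71 and 10.79 in 8 h medium. It fell with NCFM by 0.79 ± 0.058 and with B. lactis 420 by 0.32 ± 0.058, and with Ls-33 it was at -0.016 ± 0.058 (adjusted p = 3.16e-09, 0.000251 and 0.847). HSF1 itself had 4.22 and 3.97 with NCFM cells, 4.13 and 4.03 with B. lactis 420 cells and 4.28 and 4.22 with Ls-33 cells, against 4.12 and 4.12 in 8 h medium. Its groups overlapped for NCFM and B. lactis 420, and its transcript was not called at -0.026 ± 0.16, -0.036 ± 0.16 and 0.13 ± 0.16 (adjusted p = 0.924, 0.89 and 0.553).

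Whether the live strains differed was tested directly. The F-test across the 3 co-cultures called 8 of 27 members, where 13.7% of all genes were called: SERPINH1, HSPA6, HSPB8, HSPA2, HSPB1, DNAJA1, HSPD1 and HSP90AB1. With a variance model that had no trend on mean signal, it called 1 of 27 members. SERPINH1 differed most clearly (adjusted p = 5.44e-08), followed by HSPD1 (0.00514) and HSPB1 (0.00604). On another HSPD1 probe set, given below, the order of the 3 strains was reversed, with NCFM arrays highest. The calls of SERPINH1, HSPD1 and HSPB1 held whichever co-culture array was left out. The others did not. The adjusted p of HSPA6 (0.0269) became 0.0709 without NCFM co-culture array 2 and 0.376 without Ls-33 co-culture array 1. That of HSPB8 (0.0358) became 0.145 without NCFM co-culture array 1, 0.0501 without B. lactis 420 co-culture array 1, 0.0947 without Ls-33 co-culture array 1 and 0.134 without Ls-33 co-culture array 2. That of HSPA2 (0.0301) became 0.0888 without B. lactis 420 co-culture array 2, 0.116 without Ls-33 co-culture array 1 and 0.175 without Ls-33 co-culture array 2. That of DNAJA1 (0.0172) became 0.135 without NCFM co-culture array 1 and 0.075 without Ls-33 co-culture array 2. That of HSP90AB1 (0.0204) became 0.051 without NCFM co-culture array 1, 0.0749 without NCFM co-culture array 2 and 0.0712 without B. lactis 420 co-culture array 1. The count of 8 was 5 without Ls-33 co-culture array 1.

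**Figure D3:**
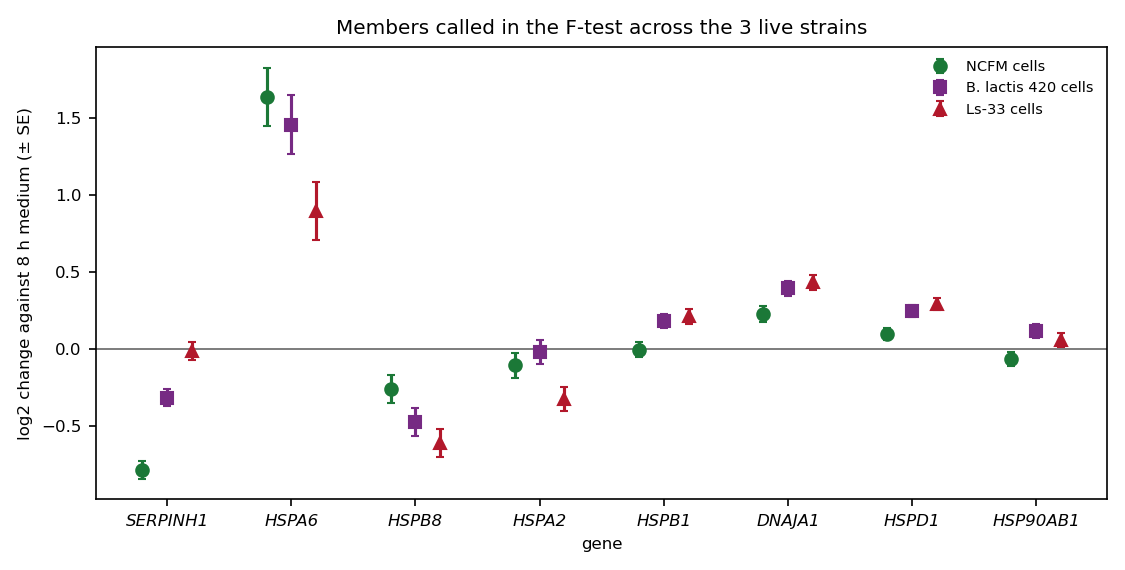
Log2 change against 8 h medium with its standard error for the 8 members called in the F-test across live strains, one symbol per strain and n = 2 arrays each. SERPINH1 is at -0.79 for NCFM, -0.32 for B. lactis 420 and -0.016 for Ls-33, and HSPA6 is lower with Ls-33 than with NCFM.

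Between pairs of strains, Ls-33 cells had 7 members higher and 2 lower than NCFM cells, where 14.7% of all genes were called, 8.13% higher and 6.55% lower. SERPINH1 was higher with Ls-33 by 0.77 ± 0.058 (adjusted p = 1.35e-08), and HSPA6 was lower by 0.74 ± 0.19 (adjusted p = 0.012). HSPB8 was lower by 0.35 ± 0.091 (adjusted p = 0.0132). HSPB1 was higher by 0.22 ± 0.047 (adjusted p = 0.00335) and HSPD1, on its probe set of highest signal, by 0.19 ± 0.039 (adjusted p = 0.00215). Another HSPD1 probe set went the other way, with 7.71 and 7.85 with Ls-33 cells against 8.35 and 8.44 with NCFM cells. Its remaining probe sets above the floor were higher with Ls-33. The count of 9 was 5 without NCFM co-culture array 2 and 4 without Ls-33 co-culture array 1. The HSPA6 difference became 0.0762 without NCFM co-culture array 2 and 0.232 without Ls-33 co-culture array 1, and that of HSPB8 0.0843 without NCFM co-culture array 1, 0.0508 without Ls-33 co-culture array 1 and 0.0927 without Ls-33 co-culture array 2. HSPA4 (0.21), HSPA9 (0.17), HSPE1 (0.16) and DNAJA1 (0.21) were also called and were lost without at least 1 array. For HSPA4 the adjusted p became 0.185 without NCFM co-culture array 2 and 0.306 without Ls-33 co-culture array 1, and for HSPA9 0.0981 without NCFM co-culture array 2, 0.0511 without Ls-33 co-culture array 1 and 0.204 without Ls-33 co-culture array 2. For HSPE1 it became 0.174 without NCFM co-culture array 2 and 0.304 without Ls-33 co-culture array 1, and for DNAJA1 0.0757 without NCFM co-culture array 1 and 0.099 without Ls-33 co-culture array 2.

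B. lactis 420 cells had 4 members higher than NCFM cells and none lower, where 3.03% of all genes were called, 2.28% higher and 0.759% lower. SERPINH1 was higher by 0.47 ± 0.058 (adjusted p = 3.18e-05). HSP90AB1 was higher by 0.18 ± 0.044 (adjusted p = 0.0263), HSPB1 by 0.19 ± 0.047 (adjusted p = 0.0326) and HSPD1 by 0.15 ± 0.039 (adjusted p = 0.0474). On the HSPD1 probe set of next highest signal B. lactis 420 arrays also lay above those of NCFM. On another they lay below, with 7.95 and 8.20 against 8.35 and 8.44. The count of 4 was 2 without NCFM co-culture array 1, 1 without NCFM co-culture array 2, 1 without B. lactis 420 co-culture array 1 and 1 without B. lactis 420 co-culture array 2. The adjusted p of HSP90AB1 became 0.096 without NCFM co-culture array 2, 0.175 without B. lactis 420 co-culture array 1 and 0.0916 without B. lactis 420 co-culture array 2. That of HSPB1 became 0.0583 without NCFM co-culture array 1, 0.0955 without NCFM co-culture array 2, 0.205 without B. lactis 420 co-culture array 1 and 0.0979 without B. lactis 420 co-culture array 2, and that of HSPD1 0.0972 without NCFM co-culture array 1, 0.108 without NCFM co-culture array 2, 0.244 without B. lactis 420 co-culture array 1 and 0.129 without B. lactis 420 co-culture array 2. Ls-33 cells had SERPINH1 higher than B. lactis 420 cells by 0.30 ± 0.058 (adjusted p = 0.00407) and HSPA2 lower by 0.31 ± 0.079 (adjusted p = 0.03), where 5.58% of all genes were called, 2.88% higher and 2.7% lower. The count of 2 was 1 without B. lactis 420 co-culture array 1, 1 without B. lactis 420 co-culture array 2 and 0 without Ls-33 co-culture array 1. For SERPINH1 the adjusted p became 0.058 without Ls-33 co-culture array 1, and for HSPA2 0.101 without B. lactis 420 co-culture array 1, 0.146 without B. lactis 420 co-culture array 2, 0.117 without Ls-33 co-culture array 1 and 0.149 without Ls-33 co-culture array 2. HSPH1 was not called between strains, and the 95% interval of the difference was -0.011 to 0.40 for Ls-33 minus NCFM, -0.15 to 0.26 for B. lactis 420 minus NCFM and -0.065 to 0.35 for Ls-33 minus B. lactis 420. HSPA6 was not called for Ls-33 against B. lactis 420 (adjusted p = 0.09), but its adjusted p was 0.0297 without Ls-33 co-culture array 2. For HSP90AA1 the same intervals were -0.016 to 0.18, -0.11 to 0.082 and -0.00097 to 0.19.

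Fewer members were called with the probiotic supernatants after 24 h. With NCFM supernatant 2 of 27 members were higher and 1 lower (11.1%), where 11.3% of all genes were called, 5.28% higher and 5.98% lower. With B. lactis 420 supernatant 2 were higher and 1 lower (11.1%), where 15.2% were called, 5.98% higher and 9.2% lower. With Ls-33 supernatant 5 were higher and 3 lower (29.6%), where 16.6% were called, 8.48% higher and 8.14% lower. The median member changed by 0.041, 0.052 and 0.079, against -0.018, -0.042 and -0.010 over all genes. These counts changed with single arrays. The NCFM count of 3 was 1 without 8 h medium array 1, 0 without 8 h medium array 2 and 1 without NCFM supernatant array 1. The B. lactis 420 count of 3 was 1 without 8 h medium array 2 and 1 without B. lactis 420 supernatant array 1. The Ls-33 count of 8 was 3 without 8 h medium array 1, 4 without 8 h medium array 2, 5 without Ls-33 supernatant array 1 and 1 without Ls-33 supernatant array 2.

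DNAJB4 and DNAJB6 were called with all 3 supernatants. DNAJB4 had 6.65 and 6.50 with NCFM supernatant, 6.36 and 6.53 with B. lactis 420 supernatant and 6.88 and 6.78 with Ls-33 supernatant, against 5.996 and 5.72 in 8 h medium. Its arrays stood above the medium, with changes of 0.71 ± 0.14, 0.58 ± 0.14 and 0.97 ± 0.14 (adjusted p = 0.00292, 0.00931 and 0.00012), of which the Ls-33 call held whichever array was left out. On the other DNAJB4 probe set they were 0.59 ± 0.18, 0.29 ± 0.18 and 0.22 ± 0.18, without a call (adjusted p = 0.0552, 0.337 and 0.495). The NCFM call became 0.053 without 8 h medium array 2 and the B. lactis 420 call 0.12 without 8 h medium array 2 and 0.0972 without B. lactis 420 supernatant array 2. DNAJB6 had 8.31 and 8.22 with NCFM supernatant, 8.08 and 8.34 with B. lactis 420 supernatant and 8.28 and 8.30 with Ls-33 supernatant, against 8.61 and 8.63 in 8 h medium. It fell below both medium arrays on all 6 arrays, with changes of -0.36 ± 0.090, -0.41 ± 0.090 and -0.33 ± 0.090 (adjusted p = 0.0145, 0.00458 and 0.0155). Its NCFM call became 0.0602 without 8 h medium array 1, 0.0856 without 8 h medium array 2, 0.0503 without NCFM supernatant array 1 and 0.101 without NCFM supernatant array 2, its B. lactis 420 call 0.079 without B. lactis 420 supernatant array 1 and its Ls-33 call 0.0611 without 8 h medium array 1, 0.0867 without 8 h medium array 2, 0.0806 without Ls-33 supernatant array 1 and 0.0862 without Ls-33 supernatant array 2. HSPB8 had 8.80 and 8.63 with NCFM supernatant, 8.61 and 8.55 with B. lactis 420 supernatant and 8.68 and 8.83 with Ls-33 supernatant, against 8.36 and 8.35 in 8 h medium. All 6 arrays lay above both medium arrays, whereas the co-culture arrays lay below them, and the changes were 0.36 ± 0.091, 0.22 ± 0.091 and 0.40 ± 0.091 (adjusted p = 0.0148, 0.104 and 0.00515). Its NCFM call became 0.066 without 8 h medium array 1, 0.0821 without 8 h medium array 2 and 0.179 without NCFM supernatant array 1 and its Ls-33 call 0.0982 without Ls-33 supernatant array 2. The difference between a strain's cells and its supernatant was not tested.

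HSPH1 had 8.37 and 8.41 with NCFM supernatant, 8.30 and 8.50 with B. lactis 420 supernatant and 8.35 and 8.49 with Ls-33 supernatant. All 6 arrays lay above the medium arrays, at 0.26 ± 0.10, 0.27 ± 0.10 and 0.29 ± 0.10, with a call for Ls-33 alone (adjusted p = 0.0488), which became 0.305 without 8 h medium array 1, 0.0652 without Ls-33 supernatant array 1 and 0.322 without Ls-33 supernatant array 2. HSP90AA1 had 12.64 and 12.57 with NCFM supernatant, 12.70 and 12.63 with B. lactis 420 supernatant and 12.58 and 12.70 with Ls-33 supernatant. It was called with B. lactis 420 at 0.17 ± 0.047 (adjusted p = 0.0209) and Ls-33 at 0.14 ± 0.047 (adjusted p = 0.042). These became 0.0896 without 8 h medium array 1, 0.0906 without 8 h medium array 2 and 0.158 without B. lactis 420 supernatant array 1 for B. lactis 420, and 0.141 without 8 h medium array 1, 0.138 without 8 h medium array 2 and 0.409 without Ls-33 supernatant array 2 for Ls-33. HSP90AB1 had 11.95 and 12.03 with NCFM supernatant, 12.01 and 11.93 with B. lactis 420 supernatant and 11.97 and 11.92 with Ls-33 supernatant. It was called lower with Ls-33 at -0.16 ± 0.044 (adjusted p = 0.0202), which became 0.193 without 8 h medium array 2 and 0.178 without Ls-33 supernatant array 2. The other Ls-33 calls were DNAJA1 at 0.16 ± 0.050 (adjusted p = 0.0363), which became 0.163 without 8 h medium array 1, 0.0862 without 8 h medium array 2, 0.136 without Ls-33 supernatant array 1 and 0.152 without Ls-33 supernatant array 2, and SERPINH1 at -0.18 ± 0.058 (adjusted p = 0.0365), which became 0.0519 without 8 h medium array 1, 0.238 without 8 h medium array 2, 0.121 without Ls-33 supernatant array 1 and 0.17 without Ls-33 supernatant array 2. The HSPA1A and HSPA1B probe set had 12.11 and 12.13 with NCFM supernatant, 12.11 and 12.12 with B. lactis 420 supernatant and 12.16 and 12.23 with Ls-33 supernatant and was not called.

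The probe set that HSPA1L shares with that pair was called lower with NCFM supernatant at -0.19 ± 0.052 (adjusted p = 0.033) and B. lactis 420 supernatant at -0.23 ± 0.052 (adjusted p = 0.00743), which became 0.126 without 8 h medium array 1, 0.134 without 8 h medium array 2 and 0.299 without NCFM supernatant array 1 for NCFM and 0.0522 without 8 h medium array 2 and 0.0675 without B. lactis 420 supernatant array 1 for B. lactis 420. Of all tested probe sets 4.1%, 6.76% and 5.72% were called lower with NCFM, with B. lactis 420 and with the Ls-33 supernatant. One HSPA8 probe set was called lower with Ls-33 supernatant at -0.11 ± 0.034 (adjusted p = 0.0396), which became 0.105 without 8 h medium array 1, 0.185 without 8 h medium array 2, 0.0729 without Ls-33 supernatant array 1 and 0.273 without Ls-33 supernatant array 2. The HSPA8 probe set with the largest co-culture changes was not called, with 12.73 and 12.74 with NCFM supernatant, 12.74 and 12.79 with B. lactis 420 supernatant and 12.64 and 12.72 with Ls-33 supernatant against 12.72 and 12.77 in 8 h medium. HSPA6 had 3.17 and 3.12 with NCFM supernatant, 3.30 and 3.08 with B. lactis 420 supernatant and 3.47 and 3.29 with Ls-33 supernatant, above the medium on every array and not called (adjusted p = 0.483, 0.36 and 0.0992).

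Apart from SERPINH1 with Ls-33 supernatant, the remaining members were not called with any probiotic supernatant on the probe set that represented the gene. Other probe sets of HSPA14 and CACYBP were called lower and are given below. CHORDC1 had 10.71 and 10.42 with NCFM supernatant, 10.69 and 10.78 with B. lactis 420 supernatant and 10.64 and 10.75 with Ls-33 supernatant. Its B. lactis 420 and Ls-33 arrays were above both medium arrays, and its NCFM arrays lay on either side of them. CACYBP had 9.41 and 9.04 with NCFM supernatant, 9.17 and 9.48 with B. lactis 420 supernatant and 9.15 and 9.55 with Ls-33 supernatant, overlapping the medium. SERPINH1 had 10.59 and 10.71 with NCFM supernatant, 10.78 and 10.79 with B. lactis 420 supernatant and 10.58 and 10.57 with Ls-33 supernatant. Its NCFM and Ls-33 arrays lay below both medium arrays. DNAJB1 had 8.22 and 8.34 with NCFM supernatant, 8.15 and 8.03 with B. lactis 420 supernatant and 8.24 and 8.12 with Ls-33 supernatant. DNAJB2 had 4.84 and 4.83 with NCFM supernatant, 4.64 and 4.61 with B. lactis 420 supernatant and 4.96 and 5.06 with Ls-33 supernatant. The B. lactis 420 arrays of both J-domain genes were below the medium. HSPB1 had 11.29 and 11.27 with NCFM supernatant, 11.14 and 11.16 with B. lactis 420 supernatant and 11.19 and 11.20 with Ls-33 supernatant. Its NCFM arrays were above the medium and the others overlapped it. HSPD1 had 12.93 and 12.90 with NCFM supernatant, 12.94 and 12.97 with B. lactis 420 supernatant and 12.94 and 12.99 with Ls-33 supernatant, overlapping the medium. HSPE1 had 11.95 and 11.87 with NCFM supernatant, 11.99 and 11.97 with B. lactis 420 supernatant and 11.93 and 12.05 with Ls-33 supernatant. With Ls-33 supernatant the adjusted p of HSPD1 (0.182) was 0.0398 without 8 h medium array 2, and that of HSPE1 (0.0873) was 0.0472 without Ls-33 supernatant array 1. BAG3 had 8.81 and 8.73 with NCFM supernatant, 8.81 and 8.73 with B. lactis 420 supernatant and 8.47 and 8.76 with Ls-33 supernatant. HSF1 had 4.12 and 4.24 with NCFM supernatant, 4.04 and 4.02 with B. lactis 420 supernatant and 3.99 and 3.95 with Ls-33 supernatant, with no call. HSPA1L had 5.01 and 4.95 with NCFM supernatant, 4.95 and 5.01 with B. lactis 420 supernatant and 5.26 and 5.34 with Ls-33 supernatant. The other 8 tested members had no call, with changes of -0.21 (HSPA14) to 0.15 (FKBP4) with NCFM supernatant, -0.11 (HSPA14) to 0.24 (CRYAB) with B. lactis 420 supernatant and -0.12 (HSPA9) to 0.38 (CRYAB) with Ls-33 supernatant.

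Across the 3 supernatants the limma F-test called 0 of 27 members, where 0.0337% of all genes (4 genes) were called. At an unadjusted p under 0.05 there were 3 members, of which SERPINH1 had the lowest p (0.00525, adjusted p = 0.468). Whether strain differences depended on format was tested as an interaction, which called HSPB1 (adjusted p = 0.00894) and SERPINH1 (5.21e-06), where 4.4% of all genes were called. Between live strains, SERPINH1 differed by up to 0.77, and its supernatant changes lay between -0.18 and 0.032. HSPB1 was the lowest of the 3 live strains with NCFM and, among supernatants, the highest with NCFM. The count of 2 was 1 without NCFM supernatant array 1, and the HSPB1 adjusted p was then 0.0532.

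With E. coli O157:H7 supernatant, HSPB8, DNAJB2, DNAJB4 and BAG3 rose while the shared HSPA1A and HSPA1B probe sets, HSPA1L and SERPINH1 fell. Of 27 members 13 were higher and 4 lower (63.0%), where 64.1% of all genes were called, 36.3% higher and 27.8% lower. The share of members called was near that of all genes. The median member changed by 0.25, against 0.048 over all genes. HSPB8 had 11.05, 10.95 and 11.11 with E. coli supernatant, against 8.31, 8.38 and 8.30 in 24 h medium, and the groups were far apart. It rose by 2.70 ± 0.070 (adjusted p = 1e-10). BAG3, its partner, had 9.67, 9.65 and 9.56 with E. coli supernatant, against 8.71, 8.69 and 8.51 in 24 h medium and rose by 0.99 ± 0.081 (adjusted p = 5.82e-07). Both act together in the clearance of misfolded proteins by autophagy. The second HSPB8 probe set rose by 0.86 ± 0.15 (adjusted p = 0.000272).

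Of the 5 tested J-domain proteins, 3 rose and 1 fell, where 36.3% of all genes were called higher and 27.8% lower. DNAJB2 had 7.31, 7.28 and 7.63 with E. coli supernatant, against 5.25, 4.66 and 5.15 in 24 h medium and rose by 2.38 ± 0.17 (adjusted p = 2.22e-07). DNAJB4 had 8.00, 8.09 and 8.02 with E. coli supernatant, against 6.16, 6.90 and 6.74 in 24 h medium and rose by 1.44 ± 0.17 (adjusted p = 1.05e-05), and by 1.29 ± 0.18 (adjusted p = 5.21e-05) on its other probe set. Both genes stood well above the medium arrays. DNAJA1 rose by 0.39 ± 0.054 (adjusted p = 5.07e-05) on its probe set of highest signal, and its other probe set overlapped the medium. DNAJB1 had 7.97, 8.05 and 7.94 with E. coli supernatant, against 8.23, 8.06 and 8.22 in 24 h medium. It was not called at -0.18 ± 0.094 (adjusted p = 0.11), with an adjusted p of 0.0317 without 24 h medium array 2. On the other DNAJB1 probe set all treated arrays were lower, with 7.09, 7.11 and 7.15 against 7.46, 7.31 and 7.24. DNAJB6 fell by 0.26 ± 0.10 (adjusted p = 0.0338), which became 0.0796 without 24 h medium array 2, 0.0869 without E. coli supernatant array 1, 0.0817 without E. coli supernatant array 2 and 0.0934 without E. coli supernatant array 3.

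Of the inducible Hsp70 genes that rose with live bacteria, none was called higher here. The HSPA1A and HSPA1B probe set had 11.34, 11.33 and 11.37 with E. coli supernatant, against 12.06, 12.17 and 12.11 in 24 h medium. All treated arrays were lower, by 0.77 ± 0.048 (adjusted p = 5.14e-08 over 23004 probe sets, of which 26.9% were called lower). The second probe set of the pair fell by 0.72 ± 0.081, and the one shared with HSPA1L by 1.04 ± 0.058. HSPA1L on its own probe set had 3.58, 3.54 and 3.81 with E. coli supernatant, against 4.44, 5.07 and 4.70 in 24 h medium and fell by 1.09 ± 0.18 (adjusted p = 0.000168). HSPA6 had 3.05, 2.70 and 3.00 with E. coli supernatant, against 2.94, 2.54 and 3.15 in 24 h medium, and the overlapping groups gave 0.037 ± 0.17 (adjusted p = 0.862). Of the HSPA8 probe sets, the same one had 12.46, 12.48 and 12.50 with E. coli supernatant, against 12.66, 12.66 and 12.70 in 24 h medium and fell by 0.19 ± 0.039 (adjusted p = 0.000888), and the other 3 changed by -0.29, -0.13 and -0.014, of which the last was not called. All 3 Hsp110 genes rose on the probe set that represented each, where 36.3% of all genes were called higher. An HSPA4 probe set went the other way, with 7.74, 7.58 and 7.62 against 8.14, 7.89 and 8.02 in 24 h medium. The remaining HSPA4 probe sets were higher on every treated array. On another HSPA4L probe set the treated arrays had 5.11, 5.02 and 5.22, against 3.99, 3.19 and 3.78 in 24 h medium. HSPH1 had 9.84, 9.70 and 9.82 with E. coli supernatant, against 9.06, 9.41 and 9.27 in 24 h medium and rose by 0.54 ± 0.092 (adjusted p = 0.000241), HSPA4 by 0.55 ± 0.065 (adjusted p = 1.3e-05) and HSPA4L by 0.52 ± 0.18 (adjusted p = 0.0214). The HSPA4L call became 0.0977 without 24 h medium array 3 and 0.117 without E. coli supernatant array 3. HSPA9 rose by 0.37 ± 0.053 (adjusted p = 6.04e-05), and HSPA2 was not called at -0.16 ± 0.073 (adjusted p = 0.0772).

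Neither Hsp90 gene was called higher. HSP90AA1 had 12.72, 12.65 and 12.71 with E. coli supernatant, against 12.59, 12.65 and 12.70 in 24 h medium, overlapping, at 0.043 ± 0.043 (adjusted p = 0.399). HSP90AB1 had 11.42, 11.58 and 11.46 with E. coli supernatant, against 11.91, 11.59 and 11.72 in 24 h medium, with all treated arrays lower, and fell by 0.25 ± 0.075 (adjusted p = 0.0123), which became 0.0536 without E. coli supernatant array 1. Its other probe sets fell by 0.68 ± 0.054 (adjusted p = 3.89e-07) and 0.35 ± 0.054 (0.000104). Of its co-chaperones, CHORDC1 had 11.89, 11.69 and 11.78 with E. coli supernatant, against 10.86, 11.25 and 11.07 in 24 h medium and rose by 0.72 ± 0.086 (adjusted p = 1.36e-05), and FKBP4 rose by 0.58 ± 0.10 (adjusted p = 0.000214). CACYBP had 9.85, 9.78 and 9.80 with E. coli supernatant, against 9.29, 9.83 and 9.82 in 24 h medium, at 0.17 ± 0.12 (adjusted p = 0.252), and STIP1 was at -0.042 ± 0.079 (adjusted p = 0.665), neither called. HSPB1 had 11.21, 11.33 and 11.23 with E. coli supernatant, against 11.01, 10.89 and 11.02 in 24 h medium and rose by 0.29 ± 0.057 (adjusted p = 0.000901). CRYAB was not called at 0.30 ± 0.14 (adjusted p = 0.0808), with an adjusted p of 0.0471 without 24 h medium array 1 and 0.05 without E. coli supernatant array 1. On its probe set of highest signal HSPD1 had 13.14, 13.07 and 13.10 with E. coli supernatant, against 12.95, 12.88 and 12.97 in 24 h medium and rose by 0.17 ± 0.039 (adjusted p = 0.00276). The next by signal overlapped the medium, with 11.68, 11.73 and 11.70 against 11.85, 11.71 and 11.76. Of its probe sets of lower signal above the floor, the first fell, as given below, and the other was higher on every treated array. The lid HSPE1 had 12.18, 12.03 and 12.09 with E. coli supernatant, against 12.06, 12.19 and 12.24 in 24 h medium. It was not called at -0.066 ± 0.056 (adjusted p = 0.318), with an adjusted p of 0.0488 without 24 h medium array 1. SERPINH1 had 9.94, 9.96 and 9.88 with E. coli supernatant, against 10.91, 10.79 and 10.90 in 24 h medium. The groups were well apart, and it fell by 0.94 ± 0.061 (adjusted p = 8.9e-08). HSF1 had 4.60, 4.74 and 4.54 with E. coli supernatant, against 4.56, 4.19 and 4.38 in 24 h medium, overlapping, at 0.25 ± 0.15 (adjusted p = 0.167).

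**Figure D4:**
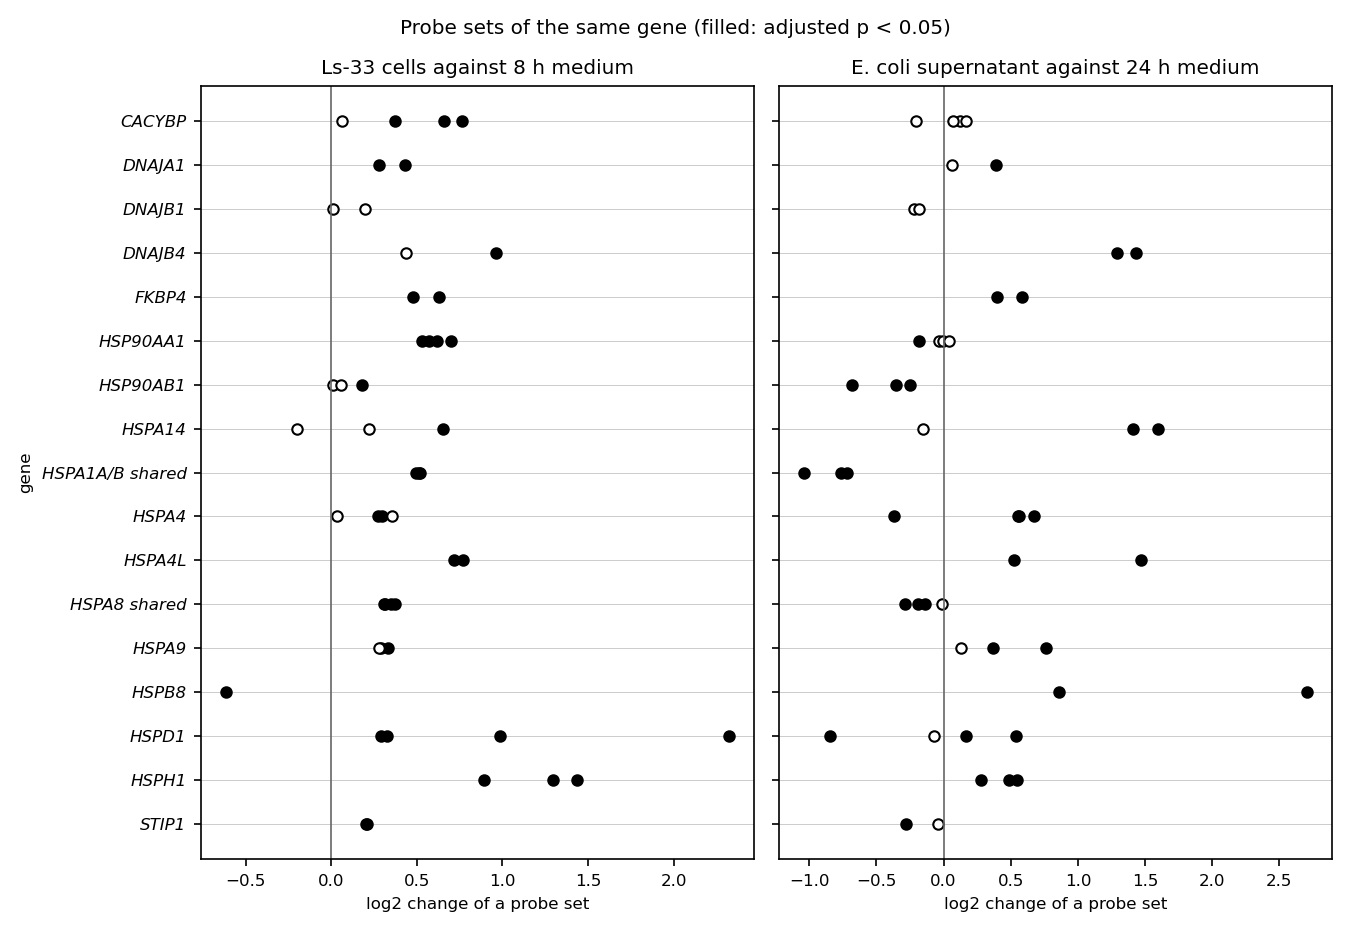
Log2 change of every tested probe set of members with more than 1, with Ls-33 cells against 8 h medium on the left and with E. coli supernatant against 24 h medium on the right, each point a probe set and filled where called. HSPD1 spreads from 0.29 to 2.32 with Ls-33 cells, and HSPA14 from -0.15 to 1.59 with E. coli supernatant.

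Different probe sets of a gene did not always give the same change. One HSPD1 probe set of lower signal rose by 2.94 ± 0.18, 2.62 ± 0.18 and 2.32 ± 0.18 with cells of NCFM, of B. lactis 420 and of Ls-33 (adjusted p = 7.18e-10, 3.42e-09 and 1.32e-08), and fell with E. coli supernatant by 0.85 ± 0.20 (adjusted p = 0.00315), against 0.10, 0.24, 0.29 and 0.17 on the HSPD1 probe set of highest signal. It had 8.35 and 8.44 with NCFM cells, 7.95 and 8.20 with B. lactis 420 cells and 7.71 and 7.85 with Ls-33 cells, against 5.13 and 5.78 in 8 h medium. Which transcript it measures cannot be read from the annotation. HSPA14 was at -0.15 with E. coli supernatant on its main probe set, without a call, whereas its other 2 rose by 1.41 ± 0.10 (adjusted p = 1.02e-07) and 1.59 ± 0.11 (adjusted p = 1.14e-07), where 34.4% of all probe sets were called higher. The last of these was called lower with the 3 probiotic supernatants, at -0.56 ± 0.11, -0.52 ± 0.11 and -0.53 ± 0.11. For DNAJB6, the first of 2 probe sets shared with TMEM135 rose with the co-cultures by 0.44, 0.64 and 0.73, and was higher with the supernatants of B. lactis 420 at 0.37 ± 0.092 (adjusted p = 0.0145) and Ls-33 at 0.46 ± 0.092 (adjusted p = 0.00305), where the gene's own probe set fell and 4.47% and 6.29% of all probe sets were called higher. A second probe set shared with TMEM135 fell with NCFM cells by 0.33 ± 0.11 (adjusted p = 0.0227) and was not called with cells of B. lactis 420 (0.12) or Ls-33 (0.0080), with the 3 supernatants (-0.33, -0.27 and -0.27) or with E. coli supernatant (0.17). The probe set CHORDC1 shares with NAALAD2 rose by 1.30, 1.29 and 1.21 with live strains and was at -0.074 with E. coli supernatant.

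Genes around the set were counted from lists of the same pathway, beside the shares of all genes called higher, which were 16.8%, 18.3% and 19.4% with cells of NCFM, of B. lactis 420 and of Ls-33, 5.28%, 5.98% and 8.48% with their supernatants and 36.3% with E. coli supernatant. The shares called lower were 18.4%, 16.9% and 19.3%, then 5.98%, 9.2% and 8.14%, and 27.8%. The cytosolic CCT chaperonin, which folds actin and tubulin, had 2, 6 and 4 of 7 tested subunits higher with cells of NCFM, of B. lactis 420 and of Ls-33 and none lower, none called with any supernatant of the 3, and 6 higher and none lower with E. coli supernatant. CCT6A rose by 0.24 ± 0.055 (adjusted p = 0.00175), 0.41 ± 0.055 (adjusted p = 7.99e-06) and 0.56 ± 0.055 (adjusted p = 1.24e-07) with the live strains, and CCT2 with E. coli supernatant by 0.71 ± 0.048 (adjusted p = 1.11e-07). Prefoldin, which hands clients to CCT, had 1, 1 and 2 of 5 members higher with the live strains, none lower, including PFDN4 with NCFM at 0.32 ± 0.058 (adjusted p = 0.000229), and 3 higher and 1 lower with E. coli supernatant. Other Hsp70 and Hsp90 co-chaperones had 9 higher and 2 lower of 22 with NCFM, 11 and 0 with B. lactis 420, 7 and 0 with Ls-33, and 10 and 2 with E. coli supernatant. SUGT1, an Hsp90 adaptor, rose by 0.44 ± 0.070 (adjusted p = 6.39e-05), 0.56 ± 0.070 (adjusted p = 3.5e-06) and 0.60 ± 0.070 (adjusted p = 1.31e-06) with the live strains. With the probiotic supernatants none of the 22 was higher and 1, 1 and 3 were lower, and of prefoldin 0, 1 and 1 were higher and 0, 1 and 0 lower. BAG2, which restrains a ubiquitin ligase on Hsp70, rose with E. coli supernatant by 2.30 ± 0.084 (adjusted p = 1e-09).

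In the list of mitochondrial folding and protease genes, 1, 1 and 4 of 9 were higher (background 16.8%, 18.3% and 19.4%) and 3, 0 and 1 lower (18.4%, 16.9% and 19.3%) with cells of NCFM, of B. lactis 420 and of Ls-33. HSCB, an iron-sulfur cluster co-chaperone, rose by 0.81 ± 0.14 (adjusted p = 0.000176), 0.66 ± 0.14 (adjusted p = 0.00121) and 0.90 ± 0.14 (adjusted p = 4.64e-05). With E. coli supernatant 3 were higher, where 36.3% of all genes were, and none lower. With the NCFM, B. lactis 420 and Ls-33 supernatants, 0, 1 and 0 of these genes were higher and 1, 1 and 2 lower. Of 7 other small heat shock proteins, 6 had a probe set and none reached the floor for testing. SQSTM1, an autophagy receptor for ubiquitin-tagged proteins, rose in every treatment: by 0.71 ± 0.062 (adjusted p = 4.27e-08), 1.11 ± 0.062 (adjusted p = 5.57e-11) and 0.88 ± 0.062 (adjusted p = 1.23e-09) with cells of NCFM, of B. lactis 420 and of Ls-33, by 0.57 ± 0.062 (adjusted p = 8.49e-06), 0.49 ± 0.062 (adjusted p = 4.26e-05) and 0.81 ± 0.062 (adjusted p = 1.19e-07) with their supernatants, and by 2.69 ± 0.11 (adjusted p = 2.08e-09) with E. coli supernatant. Among the heat shock factor partners and ubiquitin genes listed with it, 1, 1 and 2 of 5 tested were higher and none lower with the live strains, 1, 1 and 1 higher and 1, 0 and 0 lower with their supernatants, and 3 of 6 higher and none lower with E. coli supernatant.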

How the data were processed

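Expression was measured in 20 arrays of Caco-2 cells on the Affymetrix HG-U133 Plus 2.0 array. The deposited values are log2 signals per probe set, made by the authors with the RMA method, as the submitters' processing notes name it. Its version, and whether it was run on both array sets at once, is not given in the sources used here. RMA makes the signal distributions of the arrays alike and compresses low signals. No counts exist, so the number of arrays limits the precision.

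Of 54675 probe sets, 41091 had 1 gene symbol in the platform annotation, 1801 several, 11721 none, and 62 were controls. Each gene was represented by the probe set of highest mean signal, leaving out those marked as cross-hybridising where another existed. Genes whose mean lay under the 40th percentile were left out (floor 2.74 in the probiotic fit and 2.78 in the E. coli fit), which left 11865. limma 3.58.1 in R 4.3.3 (lmFit, eBayes with a trend on mean signal) was fitted over 14 arrays for the probiotic groups and over 6 for E. coli, with p-values adjusted by Benjamini-Hochberg over all tested genes. Strains were compared by contrasts and moderated F-tests in the same fit. Probe sets annotated to several genes were tested in a second fit over 23086 or 23004 probe sets. The tests were checked on simulated data.

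Signals by array are given for a list of core members, whatever their values, and for the 8 other members with the largest called change. The remaining members are given by changes or ranges. Genes outside the set are given as counts per list with up to 2 called genes of lowest adjusted p. The epithelial markers named singly were chosen after their values were seen, and the count without CRYAB was added after seeing the data. The members and all lists were chosen with earlier results of these data known. Same-numbered arrays did not deviate together (correlations of -0.031 to 0.035 for the probiotics and of -0.138 to 0.036 for E. coli), so the numbers were not taken as pairs. Alternatives varied the filter, the variance model, the normalization, the probe set of a gene, the arrays of the fit, a replicate block and single arrays. Sequences are from RefSeq (GRCh38.p14).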

Additional observations from a re-analysis of the deposited data

Results flagged for a closer look

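The difference between live strains was not the same as that between their supernatants for 2 members, by the limma F-test of the interaction of strain and format. For SERPINH1 (adjusted p = 5.21e-06) the changes were -0.79, -0.32 and -0.016 with cells of NCFM, of B. lactis 420 and of Ls-33, and -0.10, 0.032 and -0.18 with their supernatants. The SERPINH1 call held whichever array was left out. For HSPB1 (adjusted p = 0.00894) the changes were -0.0059, 0.18 and 0.21 with the cells, and 0.12, -0.0064 and 0.036 with the supernatants. Its adjusted p became 0.0532 without NCFM supernatant array 1 and 0.159 when the variance model had no trend. Format and time differ together (8 h and 24 h) and cannot be told apart.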

How the results depend on the processing

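Duplicate arrays limit these results, and the counts for supernatants and strain comparisons moved most. With single arrays left out in turn, 10 to 12, 15 to 16 and 15 to 18 members were called with cells of NCFM, of B. lactis 420 and of Ls-33, 0 to 2, 1 to 2 and 1 to 5 with their supernatants, and 15 to 19 with E. coli supernatant. For Ls-33 against NCFM the range was 4 to 7, for B. lactis 420 against NCFM 1 to 2 and for Ls-33 against B. lactis 420 0 to 2. The F-tests gave 5 to 7 for co-cultures, 0 for supernatants and 1 to 3 for the interaction. Where this left 1 array in a group, that array was assumed to vary like the other groups. Without a mean-variance trend, counts fell to 3 for Ls-33 supernatant, 3 for Ls-33 against NCFM, 1 for B. lactis 420 against NCFM, 0 for Ls-33 against B. lactis 420, 1 for the co-culture F-test and 1 for the interaction. With only the arrays compared, Ls-33 against NCFM gave 3 and B. lactis 420 against NCFM gave 1. Without a filter, Ls-33 supernatant gave 5 and Ls-33 against B. lactis 420 gave 1. After quantile normalization of all arrays, B. lactis 420 supernatant gave 5 and B. lactis 420 against NCFM gave 1. With the mean of a gene's probe sets the interaction gave 4. With each of 64 member probe sets tested on its own, 38, 43 and 47 were called with cells of NCFM, of B. lactis 420 and of Ls-33, 5 and 8 with the NCFM and B. lactis 420 supernatants, 41 with E. coli supernatant, 25 for Ls-33 against NCFM, 13 for B. lactis 420 against NCFM, 19 in the co-culture F-test and 7 in the interaction. These last counts are of probe sets and not of genes. With the replicate number as a block, 395 of 400 values kept their side of the threshold. The block ended the calls of HSPA4 with B. lactis 420 cells (adjusted p = 0.0515), HSPH1 (0.0532) and HSP90AA1 (0.0511) with Ls-33 supernatant, DNAJB6 with E. coli supernatant (0.0559) and HSPD1 for B. lactis 420 against NCFM (0.053). Of 1992 values with single arrays left out, 1848 kept their side of the threshold, 129 lost a call and 15 gained one.

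Another probe set of the gene, or the mean of them, turned the sign of some called values; the cause was not tested. With NCFM cells these were DNAJA1 (-0.0026), DNAJB4 (-0.21), HSPA4 (-0.73) and STIP1 (-0.22), with B. lactis 420 supernatant CACYBP (-0.43), and with Ls-33 supernatant HSP90AB1 (0.066). With E. coli supernatant HSPA14 was at 1.41 and 1.59 and its mean at 0.95, HSPD1 at -0.070 and -0.85 and its mean at -0.031, HSPA4 at -0.37 and HSP90AA1 at -0.18. For Ls-33 against NCFM, HSPA4 was at -0.12 and HSPD1 at -0.62. For B. lactis 420 against NCFM, HSPD1 was at -0.32 and its mean at -0.011, HSP90AA1 at 0.28 and 0.20, and STIP1 at 0.35. In each of these, at least 1 of the values compared was called.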

Other observations

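The 2 media differed for some members. HSPH1 had 9.06, 9.41 and 9.27 in 24 h medium and 8.03 and 8.22 in 8 h medium, so its levels in 24 h medium overlapped those of the 8 h co-cultures (9.22 to 9.56). Array set, RNA input and time differ together between these media and cannot be told apart, and the difference was not tested.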
